A study of Sus scrofa with 9 samples.

Results

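The genes for proteins of the cytosolic ribosome were followed in pig endothelial cells taken from the coronary artery, where they form the inner lining of the vessel. A gene was taken where the platform annotation gave a probe set a single gene symbol and that symbol began with RPL and a digit or P, began with RPS and a digit, or was RPSA. Genes of the RPS6K kinases were left out. The rule found 64 genes of the 6765 with a probe set of their own, through 96 of the 23999 probe sets that are not controls. The names put 26 of them in the small subunit and 38 in the large subunit. Each gene was represented by its brightest probe set, the one with the highest mean of log2(signal + 16) over all arrays. In that form 63 genes were bright enough to be tested, 25 of the small and 38 of the large subunit. The remaining gene, RPS15A, had signals of 8.8 to 28 on the 9 arrays and was left out of every count below.

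The study hybridised total RNA to 9 Affymetrix porcine arrays, 3 per group. Passage 4 cells had been passaged every week in culture and are named senescent in the labels. Regenerated cells had grown back in the living artery after its endothelium was stripped off, and were then scraped and cultured with no further passage. Passage 1 cells, grown for 1 week, were the controls. The labelling reaction took 1 ug of RNA for passage 4 and passage 1 cells, and 0.5 to 1 ug for regenerated cells. RNA input and group therefore cannot be told apart for the regenerated cells. The labels give no sex, age or breed, and do not give the number of animals or cultures behind a group, so a p-value here reflects variation between arrays that may be technical only.

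A cytosolic ribosome is built from a small subunit, which holds the mRNA and reads its codons, and a large subunit, which joins the amino acids. Each subunit carries ribosomal RNA and many proteins, and most of the proteins are needed in equal number, so their genes are among the most strongly expressed in a dividing cell and are controlled largely at translation. A few of the proteins act outside the ribosome. RPL5, RPL11, RPL23 and RPS27A bind MDM2, the ligase that degrades p53, and RPL26 binds p53 mRNA, all shown mainly in human cells.

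Not every gene found by name is a ribosomal protein. RPS19BP1 is a protein that binds RPS19 and RPL7L1 is a nucleolar relative of RPL7, and neither is a standard ribosomal protein. RPL22L1, RPL26L1, RPL36AL and RPS27L are close relatives of RPL22, RPL26, RPL36A and RPS27. Leaving these 6 symbols out changed no count of calls. It moved each median by less than the pooled SD given below, which is itself larger than each median. RefSeq lists 84 pig symbols under the same rule, and 20 of them had no probe set of their own here, among them RPS3, RPS7, RPS14 and RPL39, which were not analysed. Near-identical copies are common in this family, and the probe sequences were not used here, so cross-hybridisation with relatives and pseudogenes was not tested.

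Values are MAS5 signals, the brightness of a probe set on a linear scale as deposited. All arrays had been scaled to a mean of 500.1 after trimming 2% at each end. A difference is the difference of group means of log2(signal + 16), so a value of 1 means that signal plus 16 was doubled. It was tested in limma across the 15299 probe sets bright enough, with Benjamini-Hochberg adjustment over all of them, and called at an adjusted p under 0.05. Of the 63 genes, 54 had a mean signal above 10000 and 58 above 5000. The brightest 1% of the table, 240 probe sets, held 58 probe sets of these genes. RPS18, of the small subunit, gave the highest single signal in the table, 40270 on regenerated array 3. The standard error of a difference had a median of 0.145 over the 63 genes and of 0.266 over all tested probe sets.

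Endothelial identity was checked on its markers. PECAM1 averaged 8453, 6981 and 7894 in passage 4, regenerated and passage 1 cells, and CDH5 averaged 9184, 10190.3 and 9727. VWF and KDR were too dim to be tested. The endothelial markers summed to 23718 to 24659 in passage 4 cells, 22542 to 32731 in regenerated cells and 24213 to 29204 in passage 1 cells. Of 6 leukocyte markers none was bright enough to be tested, and their summed signal was 64.4 to 123.4 in passage 4 cells, 77.1 to 125 in regenerated cells and 90.9 to 124 in passage 1 cells. Smooth muscle markers summed to 7122 to 22236, 20242 to 30623 and 8685 to 24354 in the same groups, and fibroblast markers to 1186 to 1749, 3141 to 5387 and 992 to 3147. Of 9 endothelial markers tested, NOS3 was lower at passage 4 than at passage 1, and in regenerated cells ENG was higher and CLDN5 lower than at passage 1. The NOS3 call was lost with the kind of labelling as a block, described next, and without any 1 of 7 arrays, all but regenerated array 1 and passage 1 array 1. The CLDN5 call was lost without regenerated array 2. Of 4 smooth muscle and 4 fibroblast markers tested, SMTN and LUM were higher in regenerated than in passage 1 cells, and none passed for passage 4 minus passage 1. SMTN was lost with the block and without any 1 array other than passage 4 array 1 or 3, and LUM with the block and without any 1 array other than regenerated array 2. Lower at passage 4 than in regenerated cells were ENG, the smooth muscle marker CNN1 and the fibroblast marker FBLN1. All 3 were lost with the block, ENG also without passage 4 array 1 or 2, CNN1 without any 1 passage 4 or regenerated array, and FBLN1 without any 1 regenerated array or passage 4 array 1 or 3. For passage 4 minus passage 1, regenerated minus passage 1 and passage 4 minus regenerated, the endothelial medians were -0.146, -0.201 and -0.142. Those of smooth muscle were -0.238, 1.19 and -1.451, and those of fibroblast markers 0.831, 0.797 and -0.486. The first endothelial median was 0.011 with the block, and the last 0.119 without regenerated array 1. The first of smooth muscle was 0.116 without passage 4 array 2. The part of these cell types in the results was not tested. Spiked bacterial transcripts divided the arrays by how far labelling reached towards the 5′ end. Their log2 signal of the 5′ over the 3′ end was -2.09 to -1.77 on the passage 4 arrays, -5.19 to -4.36 on the regenerated arrays, and -1.99, -4.87 and -4.25 on passage 1 arrays 1, 2 and 3. A fit with this kind of labelling as a block could separate it from the groups only through passage 1. Passage 1 array 1 was the single control of the passage 4 kind. In that fit passage 4 cells were thus set against that array alone, and regenerated cells against passage 1 arrays 2 and 3. For a call lost with the block, labelling and the smaller number of controls therefore cannot be told apart. In whole-culture RNA, fewer cells expressing a gene and less RNA per cell cannot be told apart.

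The ribosomal protein genes varied together from array to array more than from group to group. Their median signal was 15533, 13211 and 13329 on passage 4 arrays 1, 2 and 3. It was 13149.6, 11059 and 15643 on the regenerated arrays and 14157, 13383 and 12679.7 on the passage 1 arrays. The 3 groups overlapped, and both the highest and the lowest array were of regenerated cells. Of the 63 genes, 32 had their highest signal on regenerated array 3 and 19 on passage 4 array 1. The lowest signal fell on regenerated array 2 for 45 genes. On the log2 scale the array medians averaged 13.77 ± 0.13 in passage 4, 13.69 ± 0.25 in regenerated and 13.71 ± 0.08 in passage 1 cells (SD, n = 3 each). The group differences of 0.062, -0.026 and 0.088 for passage 4 minus passage 1, regenerated minus passage 1 and passage 4 minus regenerated were all under the pooled SD of 0.169.

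Regenerated arrays 3 and 2 also stood out among the very brightest of the other probe sets. The 99th percentile of the signals of all other probe sets was 10141, 9405 and 9366 on the passage 4 arrays, 10270.3, 9149.6 and 11970.4 on the regenerated arrays and 10073, 10139 and 9347 on the passage 1 arrays. It was highest and lowest on regenerated arrays 3 and 2, as was the ribosomal protein median. Passage 4 array 1 did not stand out there, with regenerated array 1 above it. At the 95th percentile regenerated array 3 was again highest, at 4528. Regenerated array 2, at 4237, was not lowest there, since passage 1 array 3 was at 4150.5. The part of array scaling in the shared movement was not tested.

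**Figure D1:**
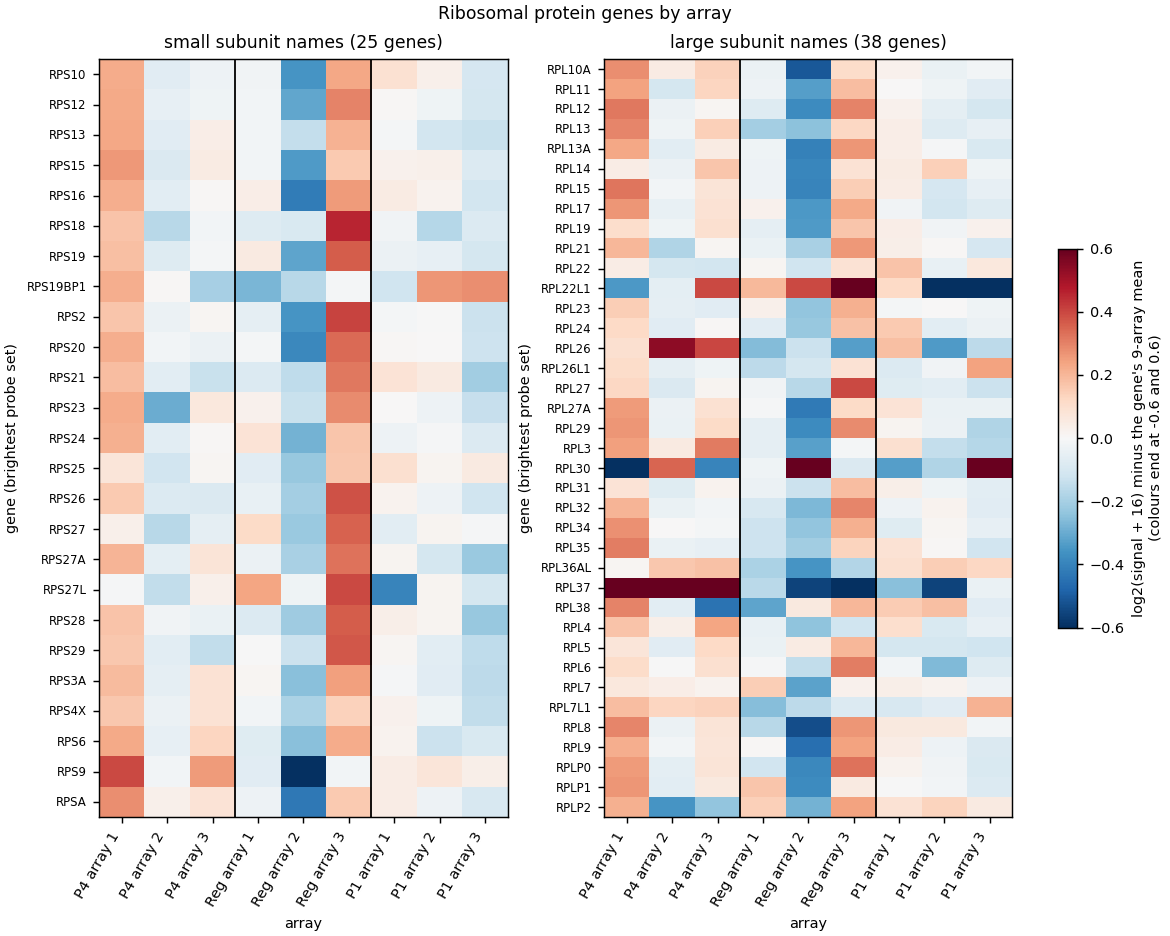
Deviation of each of the 63 ribosomal protein genes from its own mean over 9 arrays, in log2(signal + 16), drawn as colour (red above, blue below, ending at -0.6 and 0.6) with 1 row per gene and 1 column per array, small and large subunit genes apart. Most rows are blue on regenerated array 2, where the median deviation is -0.288, and red on regenerated array 3 and passage 4 array 1, where it is 0.212 and 0.201.

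Most genes of the family followed this shared pattern. The correlation of a gene with the median of the other members over the 9 arrays was above 0.8 for 38 of 63 genes, with a median of 0.878. It was highest for RPL12, which sits at the base of the large subunit stalk (r = 0.989). The least alike were RPL30 at -0.812, RPL22L1 at 0.028, RPL26 at 0.038, RPL37 at 0.22, RPL7L1 at 0.241 and RPS27L at 0.245. All genes share the 9 arrays and their scaling, so these coefficients are a description. RPL30 and RPL26 had some of the dimmest probe sets, with signals of 25 to 106 and 60.9 to 126.

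Passage 4 cells differed from passage 1 cells by small amounts across the family, with RPL37 as the exception. Of the 63 genes, 54 (85.7%) were nominally higher in passage 4 cells, against 53.9% of all tested probe sets. In the test 1 gene was called higher and 0 lower, while 4.79% of all probe sets were called, 2.71% higher and 2.08% lower. The median difference was 0.094 over the genes and 0.036 over all probe sets. The quartiles were 0.033 and 0.153 for the genes, and -0.225 and 0.320 for all probe sets. A difference smaller than 0.2 either way was found for 57 of 63 genes (90.5%), against 39.4% of all probe sets. Most of these genes are far brighter than most probe sets, and no share was taken at like brightness. The part of brightness in the narrow spread was not tested. The 95% interval of the difference lay inside -0.5 to 0.5 for 52 genes and inside -1 to 1 for 60. Leaving out each array in turn gave medians of 0.027 to 0.158 and 41 to 55 genes above 0, the lowest of both without passage 4 array 1.

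RPL37, a zinc-binding protein of the large subunit that also binds MDM2, was the gene that passed. Its probe set had signals of 879.9, 851 and 957 in passage 4 cells, and of 441, 354 and 513 in passage 1 cells. All passage 4 arrays lay above all passage 1 arrays. The means were 896 ± 54.6 and 436 ± 79.6 (SD, n = 3 each), a log2 difference of 1.02 (SE 0.21, adjusted p = 0.0215). The regenerated arrays gave 470.2, 355 and 328, below every passage 4 array and within or below the passage 1 range. With the kind of labelling as a block the difference from passage 1 was 0.99 and did not pass (adjusted p = 0.167). It missed the threshold too without any 1 of the passage 4 arrays (adjusted p = 0.0677, 0.0644 and 0.1) and without passage 1 array 2 (adjusted p = 0.0893), with differences of 0.888 to 1.145 over all alternatives. It also missed when every array was centred on the median of the ribosomal protein genes, where the difference was 0.96 (adjusted p = 0.0891) and 3.33% of all probe sets passed.

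Among the proteins of the stalk, which recruits elongation factors to the large subunit, nothing passed. RPLP0 had 24835, 19989 and 21933 in passage 4 cells, against 21126, 20489 and 19506 in passage 1 cells, and the groups overlapped (difference 0.12, adjusted p = 0.743). RPLP1 was at 0.12 (adjusted p = 0.727) and RPLP2 at -0.22 (adjusted p = 0.563). RPLP2 had 7915, 5345 and 5798 in passage 4 cells and 7269, 7499 and 7099.9 in passage 1 cells, so the passage 4 arrays lay on both sides of the control range. RPSA, a small subunit protein that is also known as the laminin receptor, was at 0.16 (adjusted p = 0.615).

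Apart from RPL37, none of the proteins tied to MDM2 and p53 described here passed. RPL11 had 19851, 15609 and 18329 in passage 4 cells and 16807, 16480.0 and 15992 in passage 1 cells, with a difference of 0.12 (adjusted p = 0.707) and a 95% interval of -0.188 to 0.427. RPL5 had 15215, 13814 and 15699 in passage 4 cells, all above the 13453, 13454 and 13329 of passage 1 cells, with a difference of 0.15 that did not pass (SE 0.11, adjusted p = 0.508). RPL23 was at 0.02 (adjusted p = 0.953), RPS27A, made as a fusion with ubiquitin, at 0.18 (adjusted p = 0.556), and RPS27L at 0.12 (adjusted p = 0.717). RPL26 had only 88.0, 126 and 113 in passage 4 cells, against 94.3, 60.9 and 71.5 in passage 1 cells, a difference of 0.45 with an interval of -0.109 to 1.009 (adjusted p = 0.377).

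Other genes with known roles likewise missed the threshold. RPS6, the substrate of the S6 kinases, had 17154, 14151 and 16010.1 in passage 4 cells and 14846, 13383 and 13736 in passage 1 cells, a difference of 0.17 (adjusted p = 0.559). RPL13A, released from the ribosome on interferon gamma in human monocytes, was at 0.09 (adjusted p = 0.804), RPS19, mutated in Diamond-Blackfan anaemia, at 0.09 (adjusted p = 0.803), and RPS4X, encoded on the X chromosome in mammals, at 0.12 (adjusted p = 0.647). RPL3, which lies near the peptidyl transferase centre, was at 0.28 (adjusted p = 0.273), RPL22L1 at 0.41 (adjusted p = 0.394) and RPL6 at 0.19 (adjusted p = 0.513). The lowest differences were those of RPL30 at -0.29 (adjusted p = 0.745), RPLP2, RPL38 at -0.16 (adjusted p = 0.714), RPS19BP1 at -0.13 (adjusted p = 0.756) and RPL22 at -0.12 (adjusted p = 0.621). The arrays of both groups did not overlap for 4 of 63 genes, RPL37, RPL6, RPL10A and RPL5, all higher at passage 4. The same held for 24.9% of all tested probe sets, 15.3% higher and 9.61% lower.

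**Figure D2:**
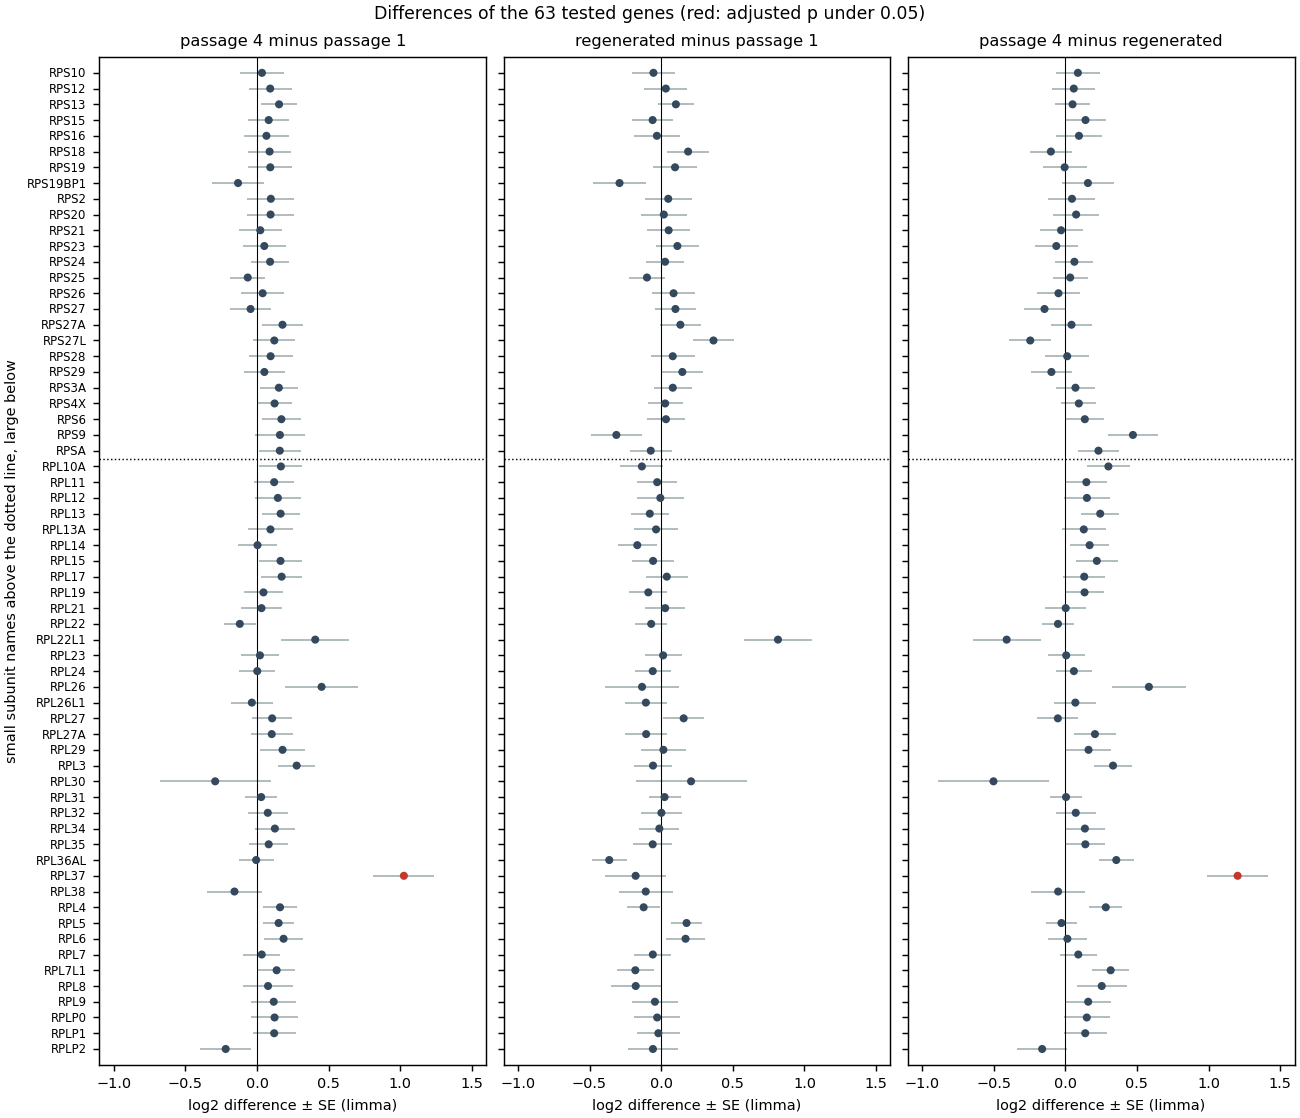
Log2 difference of each ribosomal protein gene in the 3 comparisons, with a bar of 1 SE from limma each way, small subunit genes above the dotted line and large below, and genes past the threshold in red. In each comparison with passage 1, 57 of 63 points lie within 0.2 of 0, and RPL37 stands at 1.02 for passage 4 minus passage 1 and at 1.20 for passage 4 minus regenerated.

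Regenerated cells showed no ribosomal protein gene past the threshold against passage 1 cells. Of 63 genes 29 (46.0%) were nominally higher, close to the 49.4% of all tested probe sets, and in limma 0 were called, against 5.49% of all probe sets, 2.98% higher and 2.51% lower. At an unadjusted p under 0.05 there were 3 genes. The median was -0.020 over the genes and -0.006 over all probe sets, and 57 genes (90.5%) differed by less than 0.2, against 35.2% of all probe sets. Without regenerated array 2 the median was 0.124 and 49 genes were above 0, and without regenerated array 3 it was -0.13 with 9 genes above 0.

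RPL22L1 had the largest difference. It is a relative of RPL22 that can replace it in the ribosome, and in mouse cells RPL22 represses it. Its signals were 9645, 11097 and 13077 in regenerated cells and 9169.9, 5230.4 and 5339.9 in passage 1 cells, so the groups did not overlap. The means were 11273 ± 1723 and 6580.05 ± 2244 (SD, n = 3 each), a difference of 0.82 that missed the threshold (SE 0.24, adjusted p = 0.0697). Passage 1 array 1, the control array whose labelling reached further, was the highest control. With the kind of labelling as a block the difference was 1.08 and passed (adjusted p = 0.0169). Leaving that array out gave 1.08 and passed too. This is no second check, since both set regenerated cells against passage 1 arrays 2 and 3 only. In passage 4 cells RPL22L1 had 6639.9, 8096 and 11105, a range that overlapped with both other groups.

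RPL22 itself had 13550.0, 12389 and 14289 in regenerated cells and 15129, 13054 and 14036 in passage 1 cells (difference -0.07, adjusted p = 0.762). The log2 difference of RPL22L1 and RPL22 signal on the same array, read only between arrays, was -0.490, -0.159 and -0.128 in regenerated cells and -0.721, -1.317 and -1.392 in passage 1 cells. The passage 4 arrays gave -1.058, -0.627 and -0.165. The regenerated arrays all lay above the passage 1 arrays, and the passage 4 arrays spanned both. The group difference for regenerated minus passage 1 was 0.884 beside a pooled SD of 0.354, and it carries no test.

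RPS27L, a relative of RPS27 that p53 induces in human cells, had 12841, 10689 and 14329 in regenerated cells and 8258, 11004 and 10121 in passage 1 cells. The groups overlapped on a single array each, and the difference of 0.37 did not pass (adjusted p = 0.169). RPL36AL had 4801, 4279 and 4846 in regenerated cells, below the 5849, 6069 and 5970.0 of passage 1 cells. Its difference was -0.36 and did not pass (SE 0.12, adjusted p = 0.106). RPS9, a small subunit protein that binds ribosomal RNA early in assembly, had 10530.2, 6817 and 10920.2 in regenerated cells and 11407, 11619.6 and 11341 in passage 1 cells (difference -0.31, adjusted p = 0.331). Its lowest array was regenerated array 2, on which most of the family was lowest. The groups did not overlap for 2 genes that were higher in regenerated cells, RPL22L1 and RPL5, and for 2 that were lower, RPL36AL and RPS9. Over all probe sets this held for 23.0%, 12.3% higher and 10.8% lower.

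RPL5 was at 0.18 (adjusted p = 0.368), RPL30 at 0.21 (adjusted p = 0.797) and RPS18 at 0.19 (adjusted p = 0.499). On the low side were RPS19BP1 at -0.29 (adjusted p = 0.386), RPL7L1 at -0.18 (adjusted p = 0.448) and RPL37 at -0.18 (adjusted p = 0.669). The stalk and the remaining MDM2-binding genes lay nearer 0, with RPLP0 at -0.03, RPLP1 at -0.02, RPLP2 at -0.06, RPL11 at -0.03, RPL23 at 0.01, RPS27A at 0.13 and RPL26 at -0.13. RPSA was at -0.07, RPL13A at -0.04, RPS6 at 0.03, RPS19 at 0.10, RPS4X at 0.03, RPL3 at -0.06 and RPL26L1 at -0.11. None of these passed, with adjusted p of 0.623 to 0.970 in limma.

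**Figure D3:**
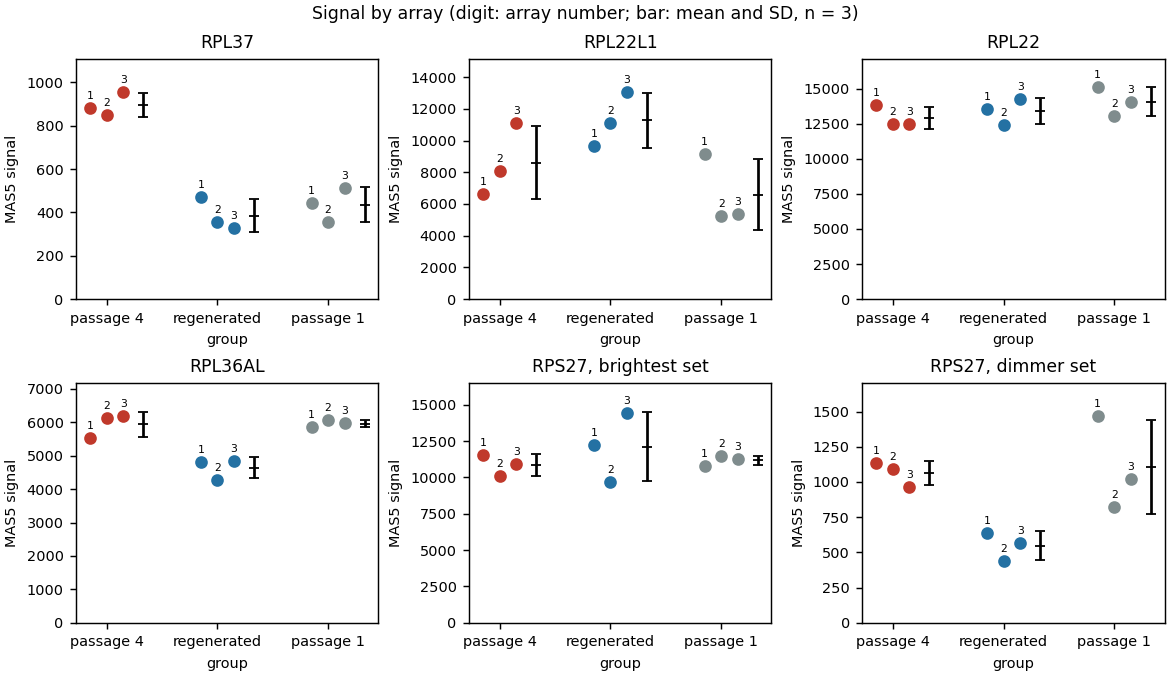
Signal of single ribosomal protein genes on each of the 9 arrays, by group, with the group means and SD as bars, for RPL37, RPL22L1, RPL22, RPL36AL and both tested RPS27 sets. RPL37 lies between 851 and 957 in passage 4 cells and between 328 and 513 on all other arrays, and RPL22L1 is higher on the 3 regenerated arrays than on the 3 passage 1 arrays.

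Passage 4 and regenerated cells were compared directly, which also tests whether both differ alike from passage 1, since the control cancels. RPL37 passed again, with the signals given above, means of 896 ± 54.6 and 384 ± 75.7 (SD, n = 3 each) and a log2 difference of 1.20 (SE 0.21, adjusted p = 0.00592). It passed in 19 of 20 alternatives, the exception being the block for the kind of labelling (1.16, adjusted p = 0.164). That was the single gene called of 63, against 12.5% of all tested probe sets, 8.14% higher and 4.35% lower, and 7 genes had an unadjusted p under 0.05. A higher value at passage 4 was found for 48 genes (76.2%), against 50.7% of all probe sets, with a median of 0.088 against 0.008. Without regenerated array 2, the array with the lowest ribosomal protein signals, the median was -0.035 with 23 genes above 0, so its sign rests on that array. Without regenerated array 3 it was 0.227 with 57 genes above 0, and without passage 4 array 1 it was 0.014 with 34.

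The next largest differences did not pass, those of RPL26 at 0.58 (adjusted p = 0.157), RPS9 at 0.47 (adjusted p = 0.102), RPL36AL at 0.36 (adjusted p = 0.0775) and RPL3 at 0.33 (adjusted p = 0.117). RPL3 had 15851, 13885 and 16629 in passage 4 cells, all above the 12901, 10670.4 and 13288 of regenerated cells. On the low side were RPL30 at -0.50 (adjusted p = 0.431), RPL22L1 at -0.41 (adjusted p = 0.284), RPS27L at -0.24 (adjusted p = 0.298), RPLP2 at -0.16 (adjusted p = 0.592) and RPS27 at -0.14 (adjusted p = 0.550). The arrays did not overlap for 7 genes, RPL37, RPL26, RPS9, RPL36AL, RPL3, RPL7L1 and RPL4, all higher at passage 4. Over all probe sets this held for 36.2%, 20.1% in that direction and 16.1% in the other. After quantile normalization 8 of the genes passed, adding RPL10A, RPL3, RPL36AL, RPL4, RPLP0, RPS9 and RPSA to RPL37.

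The small and the large subunit differed little in how they moved, and with means over the genes the groups overlapped. The mean log2 signal of the 25 small subunit genes minus that of the 38 large subunit genes was taken on each array and set against its own mean over the 9 arrays. It deviated by 0.024, -0.078 and -0.069 on the passage 4 arrays, by 0.038, -0.023 and 0.130 on the regenerated arrays and by -0.024, 0.053 and -0.052 on the passage 1 arrays. The regenerated arrays reached highest and the passage 4 arrays lowest, with 1 array of each in the shared range, and the passage 1 arrays lay between these extremes. The group differences were -0.033 for passage 4 minus passage 1, 0.056 for regenerated minus passage 1 and -0.089 for passage 4 minus regenerated, beside a pooled SD of 0.063 between arrays, which the last exceeds. They ran from -0.066 to -0.003, from 0.015 to 0.092 and from -0.125 to -0.048 without each array in turn. With medians in place of means they were 0.015, 0.099 and -0.084 beside a pooled SD of 0.052, so the first turned its sign and the second also exceeded the SD. With medians, small minus large ran from 0.136 to 0.264 on the regenerated and from 0.075 to 0.124 on the passage 1 arrays. These groups then did not overlap. Without the paralogues the differences of means were -0.024, 0.063 and -0.087 beside 0.058, and the second and the third exceeded it.

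Counts by subunit gave the same small sizes. Passage 4 was nominally higher than passage 1 for 22 of 25 small subunit genes, with a median of 0.092, and for 32 of 38 large subunit genes, with a median of 0.111. Regenerated cells were nominally higher than passage 1 for 18 of 25 small subunit genes, with a median of 0.049, and for 11 of 38 large subunit genes, with a median of -0.057. Passage 4 against regenerated gave 17 of 25 and 31 of 38, with medians of 0.051 and 0.138. The comparisons with passage 1 share their controls, and genes on an array share its scaling, so the counts of nominal directions carry no test. No small subunit gene passed in limma in any comparison, with a lowest adjusted p of 0.102 for RPS9, and 0, 1 and 1 of them were under an unadjusted p of 0.05 in the 3 comparisons.

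**Figure D4:**
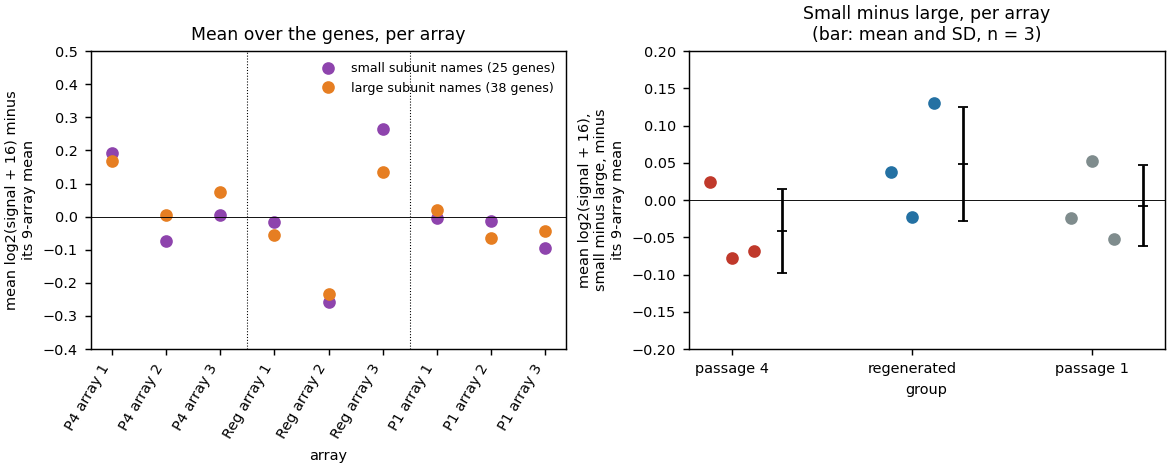
Deviation of the small subunit mean, the large subunit mean and their difference from the 9-array mean, in log2(signal + 16), in the left panel by array and in the right panel as points per array with the group mean and SD. Both subunits are lowest on regenerated array 2 and highest on regenerated array 3 or passage 4 array 1, and their difference stays between -0.078 and 0.130.

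Several genes had more than 1 probe set, and the dimmer ones did not always follow the brightest. There were 26 such tested probe sets of 21 genes. They had the same sign as the brightest in 21 cases for passage 4 minus passage 1 and in 14 cases for each of the other comparisons. Among those of opposite sign, a dimmer RPL38 set was at 0.54 for passage 4 minus passage 1 (adjusted p = 0.426 in limma). A dimmer RPLP0 set was at 0.95 for regenerated minus passage 1 (adjusted p = 0.139). A second set for RPS27 had 636, 436 and 568 in regenerated cells, below the 1471, 821 and 1020.1 of passage 1 cells and the 1133, 1089.6 and 965 of passage 4 cells. It fell by 0.97 against passage 1 (adjusted p = 0.0362) and was 0.95 higher at passage 4 than in regenerated cells (adjusted p = 0.0213). The brightest RPS27 set was at 0.10 and -0.14 in these comparisons and did not pass (adjusted p = 0.731 and 0.550). With the kind of labelling as a block the second set was at -0.74 (adjusted p = 0.0651) and 0.28 (adjusted p = 0.706), so both calls were lost. Both were lost too without any 1 passage 4 array and without regenerated array 2 or 3, and the first also without passage 1 array 1 or 3, with adjusted p of 0.0520 to 0.138.

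In 8 genes a pair of probe sets was made from the same transcript cluster, as read from their names, with 1 bright and 1 dim set. These were RPL12, RPL13A, RPL17, RPL23, RPL24, RPL32, RPL6 and RPS6. The names of a pair differ in a suffix, A1 or S1. Which strand each set reads was not examined, so a dim set may not measure the same RNA as its bright partner. For passage 4 minus passage 1 the dim sets were at 0.295 to 0.849 with a median of 0.679, and the bright sets at 0.001 to 0.185 with a median of 0.119. All 8 dim sets lay above their bright partner, and none passed (adjusted p = 0.119 to 0.530 in limma). For passage 4 minus regenerated the medians were 0.726 and 0.101, and the dim set of RPS6 passed. It had 4493, 3062 and 2934 in passage 4 cells and 2121, 843 and 1443 in regenerated cells, a difference of 1.31 (SE 0.28, adjusted p = 0.0125), and lost the call with the kind of labelling as a block (1.30, adjusted p = 0.229) and without passage 4 array 1 (1.117, adjusted p = 0.0545). The SD over the 9 arrays had a median of 0.542 for the dim and 0.164 for the bright sets, and the dim set was lowest on regenerated array 2 in all 8 genes.

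Pairs outside the family were mixed. Of all 48 other pairs the dim set lay above the bright set in 32 for passage 4 minus passage 1, with medians of 0.585 for the dim and 0.303 for the bright sets. For passage 4 minus regenerated it did so in 29, and the medians were 0.537 and 0.670. Of these pairs, 6 had a bright set with a mean of at least 5000 and a dim set of at least 500. Their dim sets had a median of 0.668 and their bright sets of -0.017 for passage 4 minus passage 1, and all 6 dim sets lay above their partner. RPL37, the gene called above, had a single probe set, 1 of 5 among the 63 with a mean signal under 5000, and no brighter partner to set it against. The part of brightness in the RPL37 difference was not tested.

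**Figure D5:**
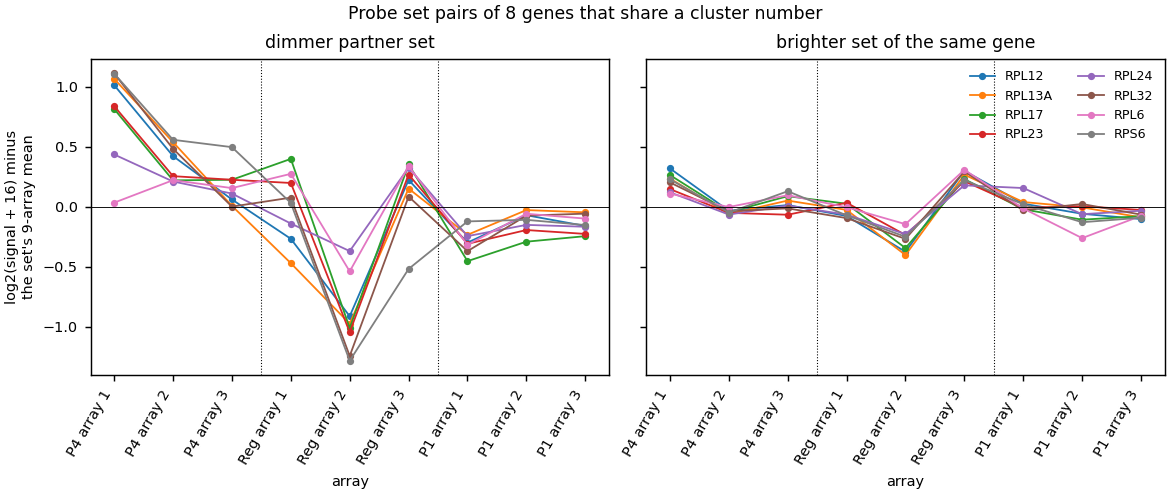
Deviation of the dim (left) and the bright (right) probe set of 8 ribosomal protein genes from its own mean over 9 arrays, in log2(signal + 16), with 1 line per gene. The dim sets spread more widely, lowest on regenerated array 2 in all 8 genes and highest on passage 4 array 1 in 7 of them.

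Other genes of translation gave the setting. RACK1 and FAU, ribosomal proteins whose symbols fall outside the name rule, lay near the family median, at 0.15 and 0.07 for passage 4 minus passage 1 and at 0.03 and -0.10 for regenerated minus passage 1, with no call (adjusted p = 0.626 to 0.935). Of 6 elongation factor genes 0 passed in limma in any comparison, beside 4.79%, 5.49% and 12.5% of all probe sets. Their medians were 0.139 for passage 4 minus passage 1, -0.081 for regenerated minus passage 1 and 0.264 for passage 4 minus regenerated. These medians were not stable. Without passage 4 array 1 the first was 0.041, without regenerated array 2 the others were 0.071 and 0.104, and with the kind of labelling as a block the 3 were 0.051, 0.017 and -0.002. Mitochondrial ribosomal proteins are made in the cytosol and serve the separate ribosome of mitochondria. Of 58 genes for them 0 passed for passage 4 minus passage 1, beside 4.79% of all probe sets. In regenerated cells 1 was lower than in passage 1 cells, beside 2.51%. At passage 4, 3 were higher than in regenerated cells, beside 8.14%, so neither count was above its share. The medians of the 58 genes were 0.053, -0.206 and 0.265 in these comparisons, with ranges of -0.026 to 0.132, -0.315 to -0.083 and 0.242 to 0.300 without each array in turn, the ends of the first pair of ranges coming without passage 1 array 1 or 3. With the block they were 0.170, -0.315 and 0.485. The gene that was lower was MRPL45, with 571, 706 and 713 in regenerated cells against 1105, 934 and 1148 in passage 1 cells (difference -0.67, adjusted p = 0.0479). Its call was lost when any 1 of the 9 arrays was left out and with the kind of labelling as a block. The 3 higher genes were MRPL45, MRPL37 and MRPS26, and none of them passed with the block. Without each array in turn 1 to 5 genes were higher, MRPL45 among them each time, while MRPL37 was lost without passage 4 array 3 and MRPS26 without passage 4 array 1 or 3 or regenerated array 2.

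Genes for factors that build the ribosome include several that passed. Of 46 tested genes of ribosome biogenesis, 8 fell in regenerated against passage 1 cells and 0 rose, beside 2.51% of all probe sets that fell and 2.98% that rose. Their median was -0.485, and 3 of 46 were above 0. The median moved to -0.289 when passage 1 array 3 was left out, and to -0.629 when passage 1 array 1 was left out. The block for the kind of labelling gave the same -0.629. It too set regenerated cells against passage 1 arrays 2 and 3 only. UTP3, of the small subunit processome, had 787, 859 and 729 in regenerated cells, against 1802, 1516 and 1572 in passage 1 cells. The difference was -1.03 (SE 0.17, adjusted p = 0.00621), and it passed without each array in turn. NIP7, which matures the large subunit, had 489, 412 and 385 in regenerated cells and 748, 824 and 1421 in passage 1 cells (difference -1.14, adjusted p = 0.0202).

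The others were FBL, the methyltransferase of ribosomal RNA, at -0.80 (adjusted p = 0.0468), its partner NOP56 at -0.75 (adjusted p = 0.0498), the helicase DDX21 at -0.66 (adjusted p = 0.0367), WDR12 of the PeBoW complex at -0.999 (adjusted p = 0.0396), BYSL at -1.44 (adjusted p = 0.0308) and MYC, the transcription factor that drives many of these genes, at -1.14 (adjusted p = 0.0347). The count depended on single arrays. It was 1 without regenerated array 2, 2 without regenerated array 3 or passage 1 array 3, 3 without passage 1 array 2, 3 or 4 without a passage 4 array, and 14 without passage 1 array 1. With the kind of labelling as a block, which kept the same controls as leaving out passage 1 array 1, 13 genes passed, all lower. Passage 1 array 3 had the highest control signal for NIP7, FBL, BYSL and MYC.

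At passage 4, 1 of the 46 biogenesis genes passed against passage 1, as a rise, beside 2.71% of all probe sets that rose and 2.08% that fell. The median of the 46 genes was -0.147, with 13 of 46 above 0. That median was -0.27 without passage 1 array 1, 0.089 without passage 1 array 3 and 0.145 with the kind of labelling as a block. BOP1, also of the PeBoW complex, had 188, 110.1 and 197 in passage 4 cells and 52.6, 18.1 and 6.61 in passage 1 cells (difference 2.23, adjusted p = 0.0107). With the kind of labelling as a block, and without passage 4 array 3, none passed. The BOP1 signals in passage 1 cells lay below their array medians of 98.8, 85.9 and 94.9. With signals this low, the size of its difference depends on the constant added before taking logs. Its passage 4 signals all lay above their array medians, so those arrays alone were enough to let it into the test. Against regenerated cells 8 of 46 were higher at passage 4, beside 8.14% of all probe sets, and 1 was lower, beside 4.35%. BOP1 was among the 8, with 8.41, 13.8 and 10.7 in regenerated cells, so the same limits apply there. The lower gene was NOP58, which works with FBL and NOP56 in guiding ribosomal RNA methylation (-0.81, adjusted p = 0.00485). The count of higher genes was 2 without regenerated array 3, 4 without regenerated array 2, 4 or 5 without a passage 4 array and 0 with the block. NOP58 passed without each array in turn and was lost with the block.

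Of 8 genes that carry mTOR signals to translation, EIF4EBP2, which encodes a repressor of cap-dependent initiation, was the single gene called and was higher in both groups. Of all probe sets 2.71% rose at passage 4 and 2.98% in regenerated cells against passage 1. EIF4EBP2 had 619, 592 and 506 in passage 4 cells, 462, 449.8 and 464 in regenerated cells and 187, 173 and 183 in passage 1 cells. The differences were 1.57 for passage 4 minus passage 1 (adjusted p = 0.00149) and 1.27 for regenerated minus passage 1 (adjusted p = 0.00358), and both passed without each array in turn and with the kind of labelling as a block. Of 32 initiation factor genes, EIF5B, which joins the subunits, was called against passage 1 at 0.83 in passage 4 cells (adjusted p = 0.0282) and at 0.74 in regenerated cells (adjusted p = 0.0387). It was the 1 gene of 32 called in each, beside the same 2.71% and 2.98% of all probe sets. Neither call held with the block. The first was lost without any 1 passage 4 array or passage 1 array 2, and the second was lost without any 1 array other than passage 1 array 3. Higher at passage 4 than in regenerated cells were EIF2B2, of the exchange factor that recharges EIF2 (0.69, adjusted p = 0.024), and the helicase EIF4A1 (0.575, adjusted p = 0.0259). These were 2 of 32, beside 8.14% of all probe sets. Neither gene passed with the block, without passage 4 array 1 or without regenerated array 2 or 3. EIF2B2 was lost also without regenerated array 1 or passage 4 array 3, and EIF4A1 without passage 4 array 2. The medians of the initiation factors were 0.039 for passage 4 minus passage 1, -0.18 for regenerated minus passage 1 and 0.256 for passage 4 minus regenerated, and those of the mTOR genes 0.040, 0.217 and -0.326. Without passage 1 array 3 the first 2 of the initiation factors were 0.084 and -0.063, and with the block the first was 0.140. For the mTOR genes the first ran between -0.032 and 0.109, its values when passage 4 array 1 or passage 1 array 1 was left out, the second was 0.327 without regenerated array 2, and the third was -0.184 without regenerated array 2 and -0.062 with the block.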

How the data were processed

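The authors deposited MAS5 signals, probe set intensities on a linear scale, per the submitters' processing notes. Its version and scaling target are not given in the sources. Of 24123 probe sets 124 were controls and were dropped, and 15299 were tested, those above the 40th percentile of the array on 3 or more of 9 arrays. Signals were kept as scaled and taken as log2(signal + 16). All 9 arrays were fitted in limma 3.58.1 (R 4.3.3, lmFit, eBayes with intensity trend), two-sided. The number of arrays limits the precision.

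Members, gene lists and tests were chosen with earlier results of these data known, and symbols were taken from the platform annotation, with all 96 identifiers found in RefSeq genes of Sscrofa11.1. Named were members past the threshold, the 5 largest differences each way, genes whose arrays did not overlap, disagreeing probe sets and a fixed panel of genes with known roles. Alternatives were pseudocounts of 1 and 64, other filters, median centring, quantile normalization, no trend, the replicate number or the kind of labelling as a block, only 6 arrays, the mean over probe sets, and each array left out in turn. Sequences and coordinates were not used here. The fit was tested on simulated data.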

Additional observations from a re-analysis of the deposited data

Results flagged for a closer look

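Control probe sets for 28S ribosomal RNA, which lie outside the comparisons, gave more signal on every passage 4 array than on every passage 1 array. The lowest passage 4 array was at 7821 for the first set and 7776 for the second. The first set averaged 8902 ± 1082 in passage 4 cells, 2548 ± 972 in regenerated cells and 3254 ± 2319.5 in passage 1 cells, and the second 8213 ± 423, 3952 ± 1282 and 4182 ± 1669 (SD, n = 3 each). Passage 1 array 1, whose labelling resembled the passage 4 arrays, was the highest control with 5837 and 5849. Control sets for other ribosomal RNAs did not separate passage 4 from passage 1 cells. The first 18S set ran from 783 to 1059 in passage 4 and from 398 to 978 in passage 1 cells. The second ran from 213 to 369 and from 61.6 to 241, and the 5S set from 69.8 to 89.5 and from 48.5 to 143. In regenerated cells the same sets ran from 359 to 724, from 93.9 to 116 and from 161 to 237. All of these lay outside the passage 4 ranges, below for the 18S sets and above for the 5S set. The differences in these control sets carry no test, and the part of labelling in them was not tested.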

How the results depend on the processing

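With the kind of labelling as a block, the probe sets called fell to 150 for passage 4 minus passage 1 and to 35 for passage 4 minus regenerated, and the ribosomal protein genes called were 0, 1 and 0 in the 3 comparisons, with RPL22L1 as the 1 in regenerated minus passage 1. Centring on the ribosomal protein genes, chosen after seeing the data, left 0 for passage 4 minus passage 1. For passage 4 minus regenerated, quantile normalization gave 8 and the mean over a gene's probe sets 2 (RPL37 and RPS6). For regenerated minus passage 1, all calls numbered 554 with the replicate number as a block and 479 with only the 6 arrays compared. Without each array in turn, all calls ran from 244 to 1403, from 291 to 1238 and from 895 to 2406 (733, 840 and 1912 with all arrays), and the ribosomal protein genes called from 0 to 1, from 0 to 1 and 1 throughout. RPLP0 for passage 4 minus regenerated was at -0.015 without regenerated array 2 (adjusted p = 0.962), against 0.15 with all arrays and 0.343 without regenerated array 3.

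Pairing of samples by replicate number was not assumed in the main fit. Deviations of same-numbered arrays correlated at -0.138 to 0.186, over 0.1 in 1 of 9 pairs. With 3 arrays per group this cannot settle whether the samples were paired. With the replicate number as a block RPL37 still passed (adjusted p = 0.042 and 0.0116). The medians and the subunit differences moved by less than the pooled SD in every alternative run. For the medians that SD, 0.169, is larger than each median itself, so a median could stay within it and still change sign. Without each array in turn the median ran from -0.13 to 0.124 for regenerated minus passage 1. For passage 4 minus regenerated it ran from -0.035 to 0.227. With 3 arrays per group, the smallest differences called for any probe set were 0.448, 0.436 and 0.385 in size.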
